A study of Mus musculus with 2 samples.

Results

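The genes described here are 10 receptor genes of natural killer (NK) cells, taken by symbol from the 32285 genes of a single-cell RNA sequencing study of mouse mammary tumours. Of these, 9 encode C-type lectin-like receptors (Klrc1, Klrc2, Klrd1, Klrk1, Klra3, Klra7, Klra8, Klrb1c and Klre1), and Ncr1 encodes NKp46, an immunoglobulin-like receptor. The tumours had grown from cells of 4T1, a mouse line that models triple-negative breast cancer, placed in the mammary fat pad. One group of mice was given beta-elemene, a plant sesquiterpene, at 30 mg/kg, and the other an equal volume of normal saline as vehicle (0 mg/kg), each injected daily into the abdomen for 18 days. Each group was 1 library of dissociated tumour cells, and the labels do not say how many mice it held. The strain of the host mice is not given in the sources used here. With 1 library a group nothing could be checked against replicates, so differences are given without a test. Every interval below is a 95% exact interval that covers counting error only.

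The lectin-like receptors are encoded side by side in the NK gene complex, and each NK cell shows some of them and not others. The protein of Klrd1, CD94, pairs with NKG2A from Klrc1 into an inhibitory receptor, and with NKG2C from Klrc2 into an activating one; both pairs read the non-classical class I molecule Qa-1, the product of H2-T23. Klrk1 encodes NKG2D, an activating receptor for stress-induced ligands of the Raet1, H60 and Ulbp1 families, which signals through the adaptor Hcst. The Klra genes encode Ly49 receptors for class I molecules: Klra3 gives Ly49C and Klra7 gives Ly49G, both inhibitory, and Klra8 gives the activating Ly49H. Klrb1c encodes NKR-P1C, known in some strains as NK1.1, Klre1 encodes a receptor that pairs with other lectin-like chains, and Ncr1 marks NK cells and some innate lymphoid cells. CD8 T cells that have met antigen can also carry NKG2A, NKG2D and CD94. The set of Klra genes differs between inbred mouse strains, so reads assigned to mm10 can fall on a near relative.

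On mm10 with the GENCODE vM21 annotation, whose gene IDs matched those of the files for all 10 genes, the lectin genes lay within 1.56 Mb of chromosome 6. Klrb1c was at chr6:128778485-128789215, Klre1 at chr6:129577905-129585827 and Klrd1 at chr6:129591782-129598775. Klrk1 was at chr6:129610323-129623864, Klrc2 at chr6:129647496-129660689 and Klrc1 at chr6:129666015-129678973. Klra8 was at chr6:130115226-130129898, Klra7 at chr6:130218605-130233322 and Klra3 at chr6:130323289-130337574. Ncr1 lay apart, at chr7:4337724-4345164. The stretch on chromosome 6 held 38 protein-coding genes, of which 20 were named Klr. The 3' ends from which these libraries count are alike within the families: of the 31-base words in the last 500 bases of the annotated transcripts, 57.6% of those of Klrc1 and 29.0% of those of Klrc2 occurred in another Klr gene, most of them in each other. The share was 57.4% for Klra3, 39.1% for Klra7, 44.5% for Klra8 and 12.9% for Klrb1c, and 0% for Klrd1, Klrk1, Klre1 and Ncr1. The split of UMIs between Klrc1 and Klrc2, and among the Klra genes, is therefore uncertain.

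RefSeq promoters (GRCm38.p6, from 250 bases before to 50 after a start) were matched for 9 of the 10 genes, all except Klrd1. They are shown for the genes the results turn on: Ncr1, found mainly in NK cells; Klrc1 and Klrc2, which were lower together in the treated NK cells; Klra3 and Klra7, detected in part of the NK cells; and Klrk1 and Klrb1c, found in myeloid cells as well. Capitals mark the letters TGTGGT, the core that RUNX factors bind, which reads ACCACA where it lies on the opposite strand. In Klrb1c they also mark GGAAGT, a core bound by ETS factors, which was searched as well in its opposite reading, ACTTCC. Each is written 5' to 3' along the gene's own strand.
Ncr1, chr7:4337465-4337764, plus strand: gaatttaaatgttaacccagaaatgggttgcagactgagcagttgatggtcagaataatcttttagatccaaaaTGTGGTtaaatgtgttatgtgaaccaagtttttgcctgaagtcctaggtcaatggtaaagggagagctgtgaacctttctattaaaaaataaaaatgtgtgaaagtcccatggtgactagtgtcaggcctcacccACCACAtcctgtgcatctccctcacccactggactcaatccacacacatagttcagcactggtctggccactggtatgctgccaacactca
Klrc1, chr6:129678924-129679223, minus strand: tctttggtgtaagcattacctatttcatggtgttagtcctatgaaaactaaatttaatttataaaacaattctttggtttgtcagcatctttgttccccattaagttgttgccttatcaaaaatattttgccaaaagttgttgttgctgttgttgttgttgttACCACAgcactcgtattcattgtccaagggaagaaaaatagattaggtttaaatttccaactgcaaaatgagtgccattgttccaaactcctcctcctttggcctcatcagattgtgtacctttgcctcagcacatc
Klrc2, chr6:129660507-129660806, minus strand: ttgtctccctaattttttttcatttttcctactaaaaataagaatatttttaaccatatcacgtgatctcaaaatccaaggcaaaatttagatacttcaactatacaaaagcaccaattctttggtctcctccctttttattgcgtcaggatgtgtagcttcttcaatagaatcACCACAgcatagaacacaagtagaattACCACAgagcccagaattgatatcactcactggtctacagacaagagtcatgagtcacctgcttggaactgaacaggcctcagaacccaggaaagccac
Klrk1, chr6:129623815-129624114, minus strand: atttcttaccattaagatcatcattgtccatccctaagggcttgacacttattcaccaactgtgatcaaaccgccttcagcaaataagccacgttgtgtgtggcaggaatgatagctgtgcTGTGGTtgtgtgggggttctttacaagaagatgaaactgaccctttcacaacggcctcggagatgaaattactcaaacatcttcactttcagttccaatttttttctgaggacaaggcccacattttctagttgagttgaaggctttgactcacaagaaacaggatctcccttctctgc
Klrb1c, chr6:128788592-128788891, minus strand: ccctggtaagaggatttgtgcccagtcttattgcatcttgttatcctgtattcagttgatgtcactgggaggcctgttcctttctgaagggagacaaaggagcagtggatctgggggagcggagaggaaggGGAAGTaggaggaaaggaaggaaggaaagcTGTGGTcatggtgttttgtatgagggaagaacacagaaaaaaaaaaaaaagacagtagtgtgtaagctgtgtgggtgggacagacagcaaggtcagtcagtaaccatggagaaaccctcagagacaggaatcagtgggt
Klra3, chr6:130337577-130337876, minus strand: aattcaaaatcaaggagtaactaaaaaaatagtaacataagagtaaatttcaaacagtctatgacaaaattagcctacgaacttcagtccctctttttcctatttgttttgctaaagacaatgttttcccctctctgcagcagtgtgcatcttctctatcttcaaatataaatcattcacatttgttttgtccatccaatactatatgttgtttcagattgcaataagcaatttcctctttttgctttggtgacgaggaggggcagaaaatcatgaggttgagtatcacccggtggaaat
Klra7, chr6:130233273-130233572, minus strand: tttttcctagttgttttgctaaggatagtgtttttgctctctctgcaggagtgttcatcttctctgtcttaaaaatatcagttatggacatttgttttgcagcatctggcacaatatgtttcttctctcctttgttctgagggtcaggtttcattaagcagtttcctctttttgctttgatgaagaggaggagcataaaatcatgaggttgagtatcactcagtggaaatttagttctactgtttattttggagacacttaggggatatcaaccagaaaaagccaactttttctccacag
The RUNX letters stood in a promoter of 6 of the 9 matched genes (Ncr1, Klrc1, Klrc2, Klrk1, Klrb1c and Klre1) and in none of the promoters of the 3 Klra genes. Some genes have 2 overlapping or nearby promoters listed, and counted by promoter the letters stood in 8 of 14. They occurred in 16.8% of all 32851 promoters of this length. The T-box letters AGGTGT, searched on the opposite strand as ACACCT too, were found in 0 of the 14 promoters, against 13.7% of all promoters, and the ETS letters in 1, against 23.8%. These are matches of letters in a window.

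The beta-elemene library held 11539 barcodes with a median of 9682 UMIs (unique molecular identifiers, counts of captured RNA molecules), and the vehicle library 11324 barcodes with a median of 11878.5. After filtering and without called doublets, 10546 and 10465 cells were used. Clusters were named from markers that did not include any Klr gene or Ncr1, and these genes were also kept out of the clustering. The NK-like cluster, called NK cells below, had 70 beta-elemene and 42 vehicle cells, with medians of 6330 and 3601.5 UMIs per cell. Levels are given as CPM, a gene's UMIs over all UMIs of the cell group in that library on the per-million scale. The 14 NK markers that helped to name the cluster summed to 10729 CPM in beta-elemene and 15048 in vehicle NK cells. A UMI of 13 of them was found in each library, and likewise in CD8 T and in dividing T cells. Eomes stood at 164 and 99.1 CPM and the signalling adaptor Tyrobp at 1288 and 1079. Other NK markers went the other way, with Txk at 360 and 652 CPM and Gzma at 2299 and 3201. T cell receptor and CD3 transcripts were not absent from the NK cells: the summed T cell markers stood at 962 and 678 CPM, while Cd8a and Cd8b1 had 3 and 2 UMIs in beta-elemene and 0 in vehicle. Gzmf, a granzyme that also leads a CD8 T cluster, had 428 UMIs in beta-elemene NK cells and 0 in vehicle ones. Markers of other classes summed in NK cells to 142 and 177 CPM for malignant cells, 272 and 339 for macrophages, 876 and 787 for monocytes, 98.8 and 62.6 for neutrophils, 110 and 146 for fibroblasts, and 0 in both for B cells. The ratio of each member called in NK cells is also given below without the cells that held at least 5 UMIs of the malignant, neutrophil, macrophage and fibroblast markers. CD8 T cells numbered 295 and 280, with medians of 4364 and 4068.5 UMIs. No barcode was shared between the NK cells of the 2 libraries, against 28 among all cells used.

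The question for the whole set was which cells of these tumours carried each receptor. The 10 genes summed reached 2058 CPM in beta-elemene NK cells (1938 to 2183) and 2148 CPM in vehicle NK cells (1946 to 2366). CD8 T cells followed at 1110 and 950.4 CPM, and conventional CD4 T cells were far below at 151 and 190.3 CPM. Regulatory T cells had 4.25 and 20.5 CPM. In malignant cells, a type not known to make these receptors and used here for comparison, the sum was 1.61 CPM in beta-elemene and 0.846 CPM in vehicle. This comparison level was itself higher in beta-elemene, with 127 against 78 UMIs and a ratio of 1.91 (1.43 to 2.565).

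**Figure D1:**
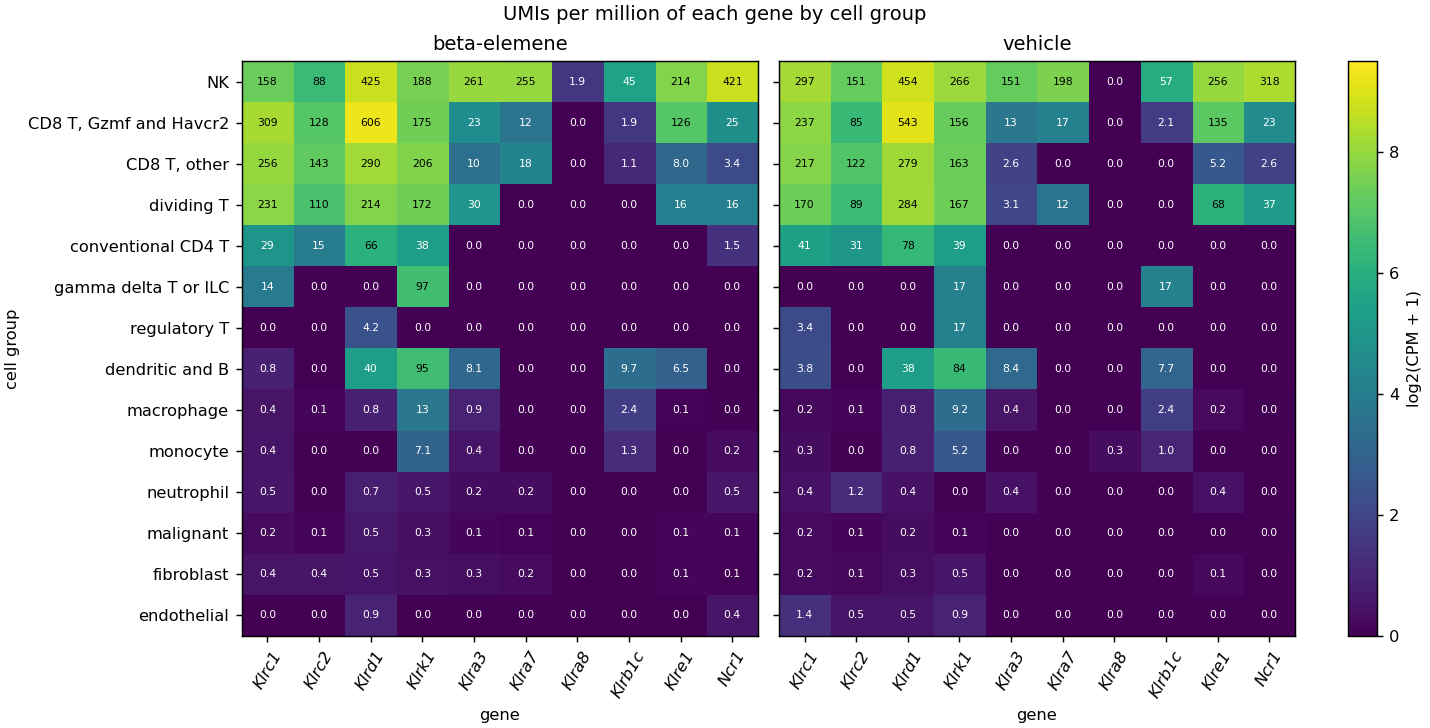
Level of each of the 10 genes (columns) in each cell group (rows), with the beta-elemene library on the left and the vehicle library on the right; the colour is log2(CPM + 1) and the number in each cell is the CPM. Ncr1, Klra3, Klra7 and Klre1 are brightest in NK cells, Klrc1, Klrc2, Klrd1 and Klrk1 are bright in NK, CD8 T and dividing T cells alike, and Klrk1 and Klrd1 also stand out in the dendritic and B cell cluster.

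Ncr1, for the NK receptor NKp46, was found mainly in NK cells. It had 226 UMIs in beta-elemene NK cells (421 CPM, 368 to 480.0) and 61 UMIs in vehicle NK cells (318 CPM, 243 to 409). NK cells held 84.6% of all its UMIs in the beta-elemene library and 67.0% in the vehicle library. The next groups in order had 25.2 CPM in beta-elemene (CD8 T cells with Gzmf and Havcr2) and 37.0 CPM in vehicle (dividing T cells), and the interval in NK cells lay clear of both. A UMI of Ncr1 was found in 77.1% of beta-elemene NK cells (65.5 to 86.3) and in 61.9% of vehicle NK cells (45.6 to 76.4).

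The Ly49 genes followed the same order. Klra3 had 261 CPM in beta-elemene NK cells and 151 CPM in vehicle NK cells, and its interval there was clear of that of the next-highest group in both libraries. Klra7 had 255 and 198 CPM, again with NK cells clear of the next group. The NK cells held 80.1% of the Klra7 UMIs in beta-elemene and 69.1% in vehicle, and 59.8% and 41.4% of those of Klra3. Klra8, for the activating Ly49H, was nearly undetected: 1 UMI in all 10546 beta-elemene cells, in an NK cell, and 1 UMI in all 10465 vehicle cells, in a monocyte. The 0 UMIs among 42 vehicle NK cells allow, at 3 counts, a level of up to 15.6 CPM or a share of up to 7.14% of cells with a UMI. The exact intervals reach 19.2 CPM and 8.41%, and no ratio is given.

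Klre1 was shared between NK cells and one kind of CD8 T cell. It had 214 CPM in beta-elemene NK cells and 255 CPM in vehicle NK cells. The CD8 T cells led by Gzmf and Havcr2 came next with 126 and 135 CPM, below the NK interval in both libraries. The other CD8 T cells had 8.01 CPM in beta-elemene (7 UMIs) and 5.17 CPM in vehicle (4 UMIs). The Gzmf and Havcr2 cells stood 15.7-fold above the other CD8 T cells in beta-elemene (7.22 to 40.7) and 26.2-fold in vehicle (9.73 to 98.9). Dividing T cells had 7 UMIs (16.3 CPM) in beta-elemene and 22 UMIs (67.9 CPM) in vehicle.

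Klrd1, the shared CD94 chain, was highest in the same CD8 T cells. They had 605.5 CPM in beta-elemene and 543 CPM in vehicle, against 290 and 279 CPM in the other CD8 T cells, a 2.09-fold (1.77 to 2.48) and 1.94-fold (1.62 to 2.34) difference. NK cells lay between them at 425 CPM in beta-elemene and 454 CPM in vehicle; in vehicle the intervals of NK and of the Gzmf and Havcr2 cells overlapped. Klrc1, for NKG2A, had 309 and 237 CPM in the Gzmf and Havcr2 cells and 256 and 217 CPM in the other CD8 T cells, with ratios of 1.203 (0.976 to 1.48) and 1.09 (0.851 to 1.39). For Klrc2 and Klrk1 the intervals also included 1, at 0.895 (0.654 to 1.22) and 0.696 (0.468 to 1.02) for Klrc2, and 0.848 (0.651 to 1.10) and 0.960 (0.711 to 1.29) for Klrk1, in beta-elemene and in vehicle. The CD8 states were clustered on other genes, among them Gzmf and Havcr2.

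**Figure D2:**
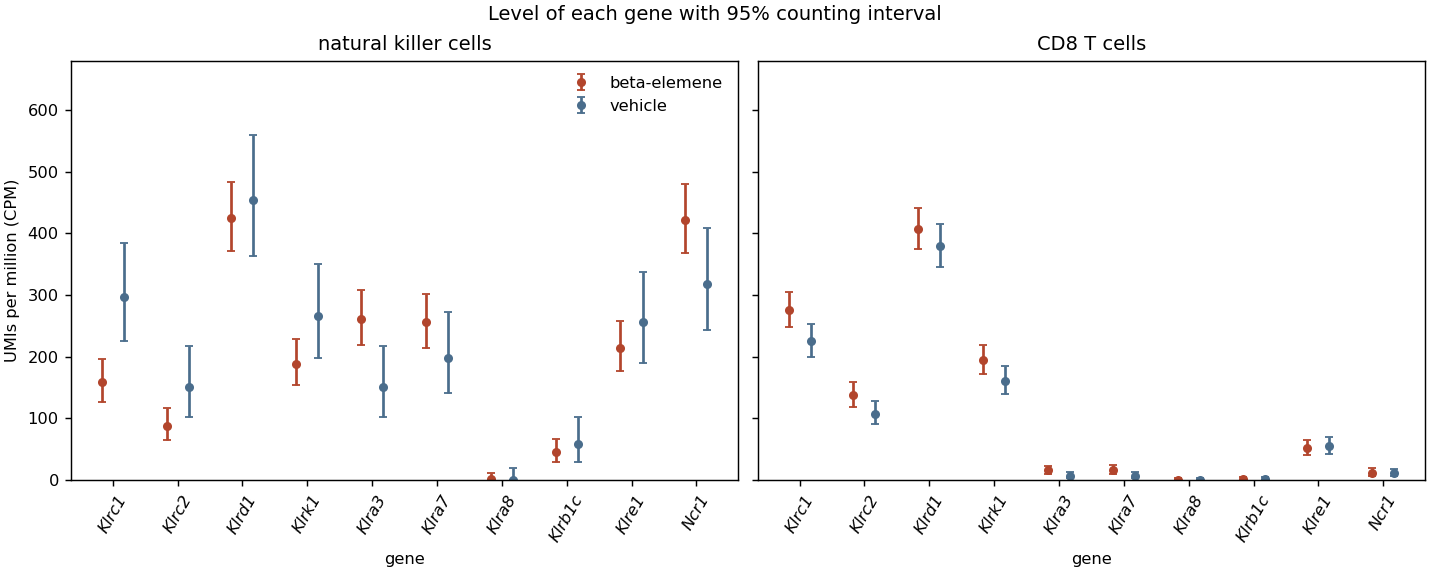
CPM of each gene in NK cells (left panel) and CD8 T cells (right panel), beta-elemene in red and vehicle in blue; points are the level of 1 library and bars its 95% counting interval. Klra3, Klra7 and Ncr1 stand between 151 and 421 CPM in NK cells and under 16 CPM in CD8 T cells, while Klrd1 lies between 379 and 454 CPM in both cell types.

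Set against CD8 T cells of the same library, the receptors differed in how far they stood in NK cells. Ncr1 was 36.6-fold higher in NK cells of the beta-elemene library (22.0 to 65.1) and 30.5-fold in the vehicle library (16.6 to 60.5). Klra3 was 17.3-fold (10.9 to 28.8) and 23.6-fold (10.5 to 59.6) higher, and Klra7 16.1-fold (10.2 to 26.6) and 30.9-fold (14.2 to 76.6). Klre1 was intermediate, at 4.13-fold (3.05 to 5.63) and 4.68-fold (3.18 to 6.86), and of its UMIs in CD8 T cells 65 of 72 and 64 of 68 were in the Gzmf and Havcr2 cells. For Klrd1 the ratio was 1.04 (0.892 to 1.22) in beta-elemene and 1.196 (0.940 to 1.51) in vehicle, and both intervals included 1. Because CD8 T cells were more numerous, they held more of the Klrd1 UMIs than NK cells did, 52.8% in beta-elemene and 58.5% in vehicle, and likewise 59.4% and 61.3% of those of Klrc1.

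For Klrc1, Klrc2 and Klrk1 the order of the cell types was not the same in the 2 libraries. Klrc1 was lower in NK than in CD8 T cells of the beta-elemene library, with 158 against 276 CPM (0.575, 0.449 to 0.729). In the vehicle library it had 297 CPM in NK cells against 225 CPM in CD8 T cells (1.32, 0.977 to 1.76). Klrc2 followed, with 0.637 (0.453 to 0.881) in beta-elemene and 1.41 (0.908 to 2.11) in vehicle. Klrk1 had 0.969 (0.763 to 1.22) in beta-elemene and 1.66 (1.19 to 2.26) in vehicle. The change of order was not tested.

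Between the treatments, the sum of the 10 genes in NK cells stood at a ratio of 0.958 (0.855 to 1.07), beta-elemene over vehicle. Beneath that sum the members went different ways. A gene was called higher or lower when its ratio was at least 1.5-fold either way, its interval excluded 1 and both libraries together held at least 20 UMIs. Of the 10 genes, 9 had the UMIs for a ratio: 1 was called higher, against 4.98% of all 4741 genes measured in NK cells, and 2 were called lower, against 6.31%. The median log2 ratio of the 9 was -0.25, beside -0.01 over all genes. With a minimum of 100 UMIs 1 was called higher, against 8.76%, and 1 lower, against 10.3%; with a limit of 2-fold 0 were called higher, against 3.04%, and 0 lower, against 3.06%.

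Klrc1, the NKG2A chain, was lower in the treated NK cells. It had 85 UMIs (158 CPM, 127 to 196) in beta-elemene and 57 UMIs (297 CPM, 225 to 385) in vehicle, and the intervals did not overlap. The ratio was 0.533 (0.377 to 0.759). Klrc2, the NKG2C chain, had 47 UMIs (87.6 CPM) and 29 UMIs (151 CPM), a ratio of 0.580 (0.357 to 0.955). Their partner Klrd1 had 425 and 454 CPM, a ratio of 0.937 (0.729 to 1.21). NK cells that held at least 5 UMIs of malignant, neutrophil, macrophage and fibroblast markers were then left out, which kept 38 and 33 cells. Klrc1 was at 0.798 (0.499 to 1.28) and Klrc2 at 0.684 (0.344 to 1.35), neither of them called. This step also took the median depths from 6330 and 3601.5 to 4004.5 and 3533 UMIs, so depth and marker content cannot be told apart. Monocyte markers were not part of it. Among cells of 2000 to 10000 UMIs, which bring the depths of the libraries closer, Klrc1 remained called at 0.637 (0.426 to 0.957) and Klrc2 was not called, at 0.861 (0.506 to 1.49).

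Klra3 was higher in the treated NK cells, with 140 UMIs (261 CPM, 220 to 308) in beta-elemene and 29 UMIs (151 CPM, 101 to 217) in vehicle. The ratio of the sums was 1.73 (1.15 to 2.67). A mean over cells of each cell's own CPM, in which deep cells weigh no more than shallow ones, gave 278 CPM in both libraries, a ratio of 1.00. Without the cells that held other-class markers the ratio was 1.37 (0.820 to 2.35), not called. Among cells of 2000 to 10000 UMIs Klra3 remained called, at 1.84 (1.15 to 3.06). It was also called when cells were gated by marker UMIs, at 2.14 (1.37 to 3.48). With the highest cell of each library left out the ratio was 1.95. Klra7 had 137 UMIs (255 CPM) and 38 UMIs (198 CPM), a ratio of 1.29 (0.894 to 1.90).

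Of the members that passed no call, Ncr1 had 421 CPM in beta-elemene and 318 CPM in vehicle NK cells, a ratio of 1.32 (0.994 to 1.79). Klrk1, for the activating NKG2D, had 188 and 266 CPM, at 0.708 (0.501 to 1.01). Both intervals just reach 1. Klre1 had 214 and 255 CPM, at 0.839 (0.596 to 1.198), and Klrb1c had 24 UMIs (44.7 CPM) and 11 UMIs (57.4 CPM), at 0.780 (0.368 to 1.76), an interval too wide to place it.

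**Figure D3:**
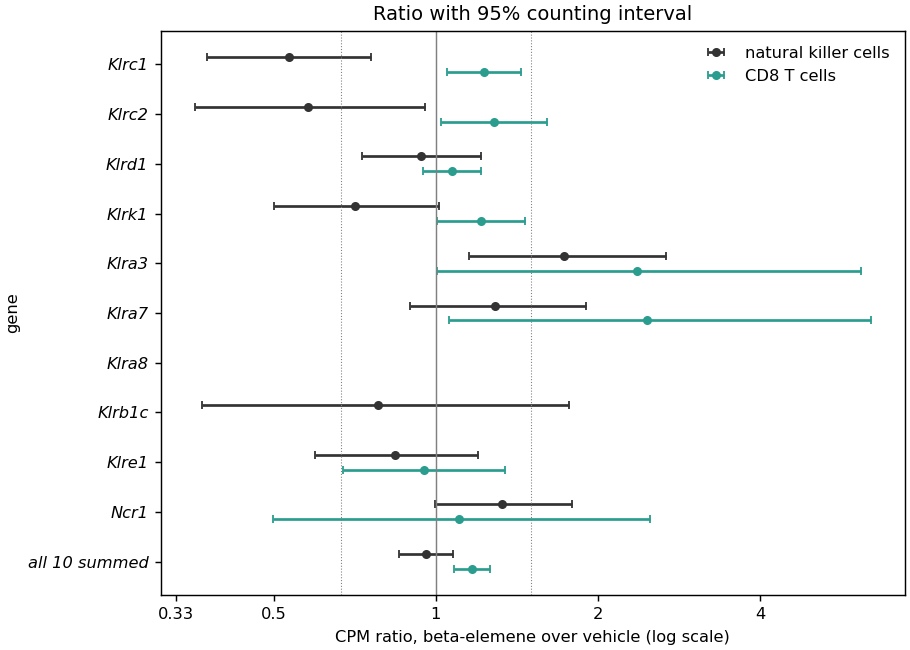
Ratio of CPM, beta-elemene over vehicle, of each gene and of the 10 genes summed, on a log axis, with NK cells in black and CD8 T cells in green; bars are 95% counting intervals and dotted lines mark 1.5-fold either way. Klrc1 and Klrc2 lie left of 1 in NK cells and right of 1 in CD8 T cells, and Klra8 has no ratio in either.

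In CD8 T cells the 10 genes summed had 1110 CPM in beta-elemene (1056 to 1167) and 950.4 CPM in vehicle (897 to 1006), a ratio of 1.17 (1.08 to 1.26). In the same cells the summed markers of macrophages stood at 468 and 715 CPM, of fibroblasts at 128 and 278 CPM, of malignant cells at 194 and 212 CPM, of neutrophils at 131 and 112 CPM and of monocytes at 1094 and 1124 CPM. Without cells holding at least 5 UMIs of the malignant, neutrophil, macrophage and fibroblast markers, the sum of the 10 genes had a ratio of 1.202 (1122 and 933 CPM). Of the 8 members with enough UMIs, 2 were called higher, against 2.2% of all 8290 genes measured, and 0 lower, against 4.2%. The median log2 ratio of the 8 was 0.29, beside -0.04 over all genes. With a minimum of 100 UMIs 0 were called, against 1.61% higher and 3.33% lower over all genes; with a limit of 2-fold the 2 calls stood, against 1.07% higher, and 0 were lower, against 1.86%. Klrc1 had 276 and 225 CPM, at 1.23 (1.05 to 1.44), Klrc2 138 and 107 CPM, at 1.28 (1.02 to 1.61), and Klrk1 194 and 160.4 CPM, at 1.21 (1.01 to 1.46). These intervals excluded 1 but the ratios were under 1.5. A mean over cells gave 1.06 for Klrc1, 1.03 for Klrc2 and 1.36 for Klrk1. By CD8 state, Klrc2 was at 1.515 (1.01 to 2.30) in the Gzmf and Havcr2 cells and 1.18 (0.894 to 1.56) in the others. Klrd1 was at 1.07 (0.947 to 1.21) and Klre1 at 0.951 (0.673 to 1.34).

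The 2 called members were the Ly49 genes Klra3 and Klra7, and few cells carried them. Klra3 had 21 UMIs in 12 beta-elemene cells and 8 UMIs in 4 vehicle cells, a ratio of 2.36 (1.00 to 6.15). Klra7 had 22 UMIs in 6 cells and 8 UMIs in 2 cells, a ratio of 2.47 (1.06 to 6.41). A single vehicle cell held 7 of the 8 UMIs of Klra7, and without the highest cell of each library its level was 10.8 CPM in beta-elemene and 0.811 CPM in vehicle. Both calls were lost when the T and NK cells were clustered at resolution 0.3 or 1.2, with the Klr genes kept, or with called doublets kept.

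Within the NK cells the receptors were read cell by cell. At least 1 of the 10 genes was found in every one of the 70 beta-elemene and 42 vehicle NK cells, with a median of 5 and 4.5 genes per cell. In malignant cells, whose medians were 22864 and 21713 UMIs, 2.47% of beta-elemene and 1.65% of vehicle cells had a UMI of any of them. With each cell thinned to 1000 UMIs, which left 69 and 42 NK cells, the median was 2 genes per NK cell in both libraries and the mean 1.71 in beta-elemene and 2.17 in vehicle. None of the 10 was then found in 9 of 69 beta-elemene and 1 of 42 vehicle NK cells. The higher count in beta-elemene cells was thus not seen at equal depth.

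**Figure D4:**
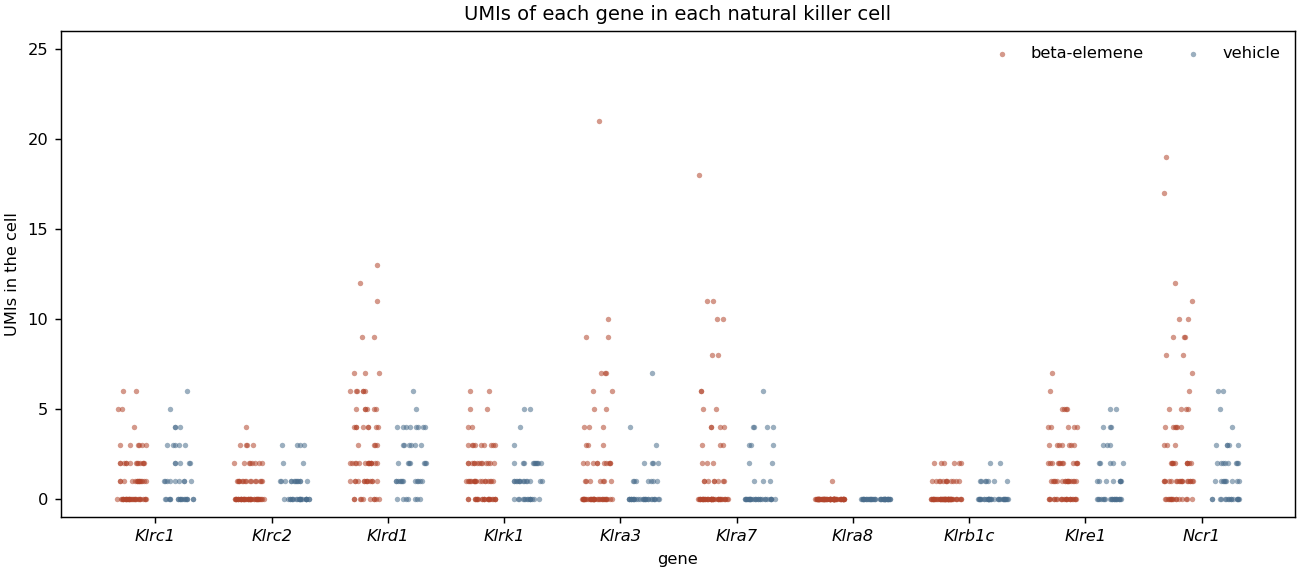
UMIs of each gene in every NK cell, 70 beta-elemene cells in red and 42 vehicle cells in blue; each point is 1 cell, spread sideways for sight. Klra3, Klra7 and Ncr1 reach 21, 18 and 19 UMIs in single beta-elemene cells while many cells have 0, and the highest Klrc1 cell has 6 UMIs in both libraries.

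The pair that makes the Qa-1 receptor, Klrc1 with Klrd1, was detected together in 36 of 70 beta-elemene NK cells (51.4%, 39.2 to 63.6) and 20 of 42 vehicle NK cells (47.6%, 32.0 to 63.6). In CD8 T cells the share was 44.1% (38.3 to 49.9) in beta-elemene and 35.0% (29.4 to 40.9) in vehicle, and in malignant cells 0.0686% and 0.0266%. Klrk1 was seen with its adaptor Hcst in 51.4% of beta-elemene and 52.4% of vehicle NK cells. Klrd1 and Ncr1 were seen together in 67.1% and 57.1% of NK cells but in 2.37% and 1.07% of CD8 T cells. In 180 and 170 CD8 T cells Klrd1 was found without Ncr1. All these joint shares depend on depth and on how often each gene was found by itself. Joint detection beyond that was not tested. After thinning, Klrc1 was found in 11.6% of beta-elemene NK cells (5.14 to 21.6) and 21.4% of vehicle NK cells (10.3 to 36.8), and the intervals overlapped.

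Klra3 and Klra7 were carried by part of the NK cells. Both were found in 19 of 70 beta-elemene cells (27.1%, 17.2 to 39.1) and in 5 of 42 vehicle cells (11.9%, 3.98 to 25.6). Exactly 1 of them was found in 25 and 17 cells, and neither in 26 (37.1%) and 20 (47.6%). The beta-elemene NK cells were deeper, with medians of 6330 UMIs against 3601.5, and thinned to 1000 UMIs Klra3 was found in 18.8% of beta-elemene and 21.4% of vehicle cells and Klra7 in 20.3% and 19.1%. The 5 cells with most Klra3 held 40.0% of its UMIs in beta-elemene and 62.1% in vehicle, and the 5 with most Klra7 43.8% and 57.9%. By the same measure Klrd1 was spread more evenly, with 23.7% and 26.4% in its 5 highest cells. The 3' ends of Klra3 and Klra7 share words with other Ly49 genes. The gene sharing most was Klra9 for Klra3 (45.15% of its words) and Klra13-ps for Klra7 (39.11%). Sharing between Klra3 and Klra7 themselves was not measured apart, and an effect on their joint detection was not tested.

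Klrk1 and Klrb1c had many of their UMIs in myeloid cells. Macrophages held 39.9% of all Klrk1 UMIs in beta-elemene and 41.4% in vehicle, more than NK or CD8 T cells did, at a low level of 12.5 CPM (11.4 to 13.8) and 9.21 CPM (8.26 to 10.2). The ratio was 1.36 (1.18 to 1.57). Among macrophages the level differed by cluster. The C1qb and Aif1 cluster, which had high class II MHC (H2-Ab1 at 2928 and 2297 CPM), held Klrk1 at 19.1 CPM (17.1 to 21.3) in beta-elemene and 16.1 CPM (14.2 to 18.1) in vehicle. The Mmp12 and Arg1 cluster had 3.91 and 2.23 CPM, and the Cd163 and Lyve1 cluster, whose H2-Ab1 was lowest at 602 and 380 CPM, had 1.22 CPM in both libraries. A shallow cluster led by Ccl12 and Mgl2, with medians of 1905 and 1750 UMIs per cell, had 6 and 5 UMIs of Klrk1. Dividing macrophages had Klrk1 at 17.8 CPM (13.6 to 22.9) and 10.4 CPM (7.19 to 14.5), with H2-Ab1 at 1458 and 1026 CPM. Monocytes had H2-Ab1 at 2421 and 2419 CPM but Klrk1 at 7.09 and 5.16 CPM. The level of Klrk1 thus did not follow that of H2-Ab1 in every cluster.

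The counts in macrophages did not keep the proportions of lymphocytes. In beta-elemene macrophages there were 444 UMIs of Klrk1, 30 of Klrd1, 15 of Klrc1 and 1 of Ncr1, against 270, 565, 383 and 16 in CD8 T cells of the same library. In vehicle macrophages there were 340, 28, 6 and 1, against 200, 473, 280 and 13 in CD8 T cells. Malignant cells had Klrk1 at 0.305 CPM in beta-elemene and 0.108 CPM in vehicle, a ratio of 2.81 (1.30 to 6.59). A UMI of Klrk1 was found in 10.7% of beta-elemene macrophages (median 11363.5 UMIs) and 9.33% of vehicle macrophages (12728 UMIs), against 0.686% and 0.266% of malignant cells, which were deeper.

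The dendritic and B cell cluster stood higher still. Klrk1 had 94.6 CPM there in beta-elemene (78.2 to 113) and 83.6 CPM in vehicle (68.7 to 101), with a UMI in 38.1% and 41.9% of cells. Klrd1 had 39.6 and 37.6 CPM, while Klrc1 had 1 and 5 UMIs and Klrc2 and Ncr1 had 0 in both libraries. Within it, cells with Siglech, a marker of plasmacytoid dendritic cells, had Klrk1 at 198 CPM (12 UMIs in 8 cells) and 133 CPM (11 UMIs in 12 cells). Cells with several UMIs of Ccr7 or Fscn1, markers of mature migratory dendritic cells, and none of Siglech, Xcr1 or Clec9a had 157 CPM (118 to 206) and 95.2 CPM (66.7 to 132). Cells with Xcr1 or Clec9a, markers of cross-presenting dendritic cells, had 46.0 CPM (28.5 to 70.3) and 79.0 CPM (54.7 to 110). The few cells with B cell markers, 14 and 5, had 0 UMIs of Klrk1. Cells placed in none of these kinds, 32 and 39, had Klrk1 at 103 CPM (70.0 to 146) and 78.4 CPM (52.1 to 113). They held 24 and 22 of the cluster's 49 Klrd1 UMIs in each library.

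**Figure D5:**
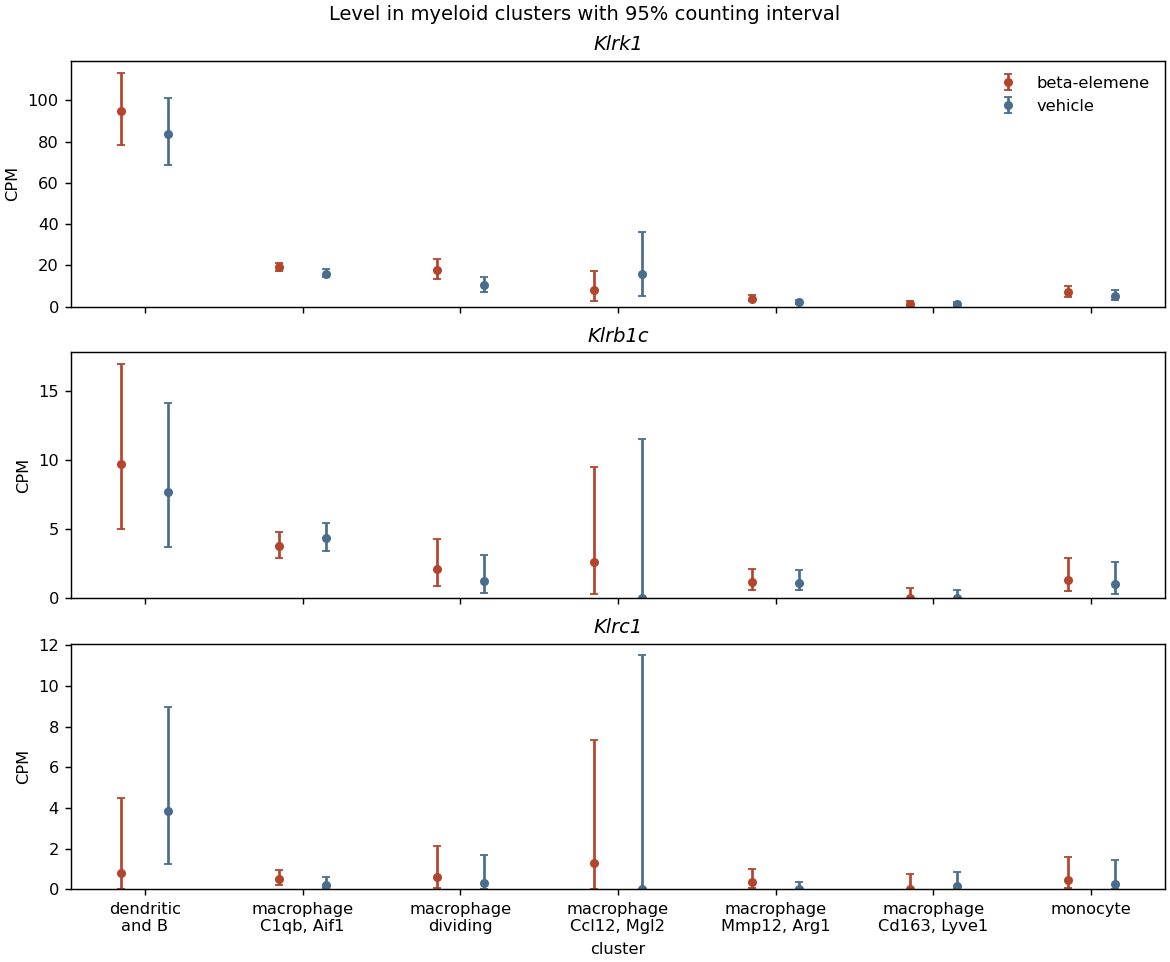
CPM of Klrk1, Klrb1c and Klrc1 in the dendritic and B cell cluster, 5 macrophage clusters named by leading genes, and monocytes, beta-elemene in red and vehicle in blue, with 95% counting intervals. Klrk1 is at 94.6 and 83.6 CPM in the dendritic and B cell cluster and at 1.22 CPM in both libraries in the Cd163 and Lyve1 macrophages; Klrc1 is under 4 CPM throughout.

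Klrb1c, the NKR-P1C gene, had its highest level in NK cells, 44.7 and 57.4 CPM, but macrophages, being far more numerous, held 63.9% of its UMIs in beta-elemene (85 of 133) and 72.7% in vehicle (88 of 121). It had 3.73 CPM (2.89 to 4.75) and 4.33 CPM (3.39 to 5.44) in the C1qb and Aif1 macrophages and 0 UMIs in the 478 beta-elemene and 569 vehicle Cd163 and Lyve1 macrophages. Over all macrophages its ratio was 1.01 (0.739 to 1.37). Of the 5 members with enough UMIs in macrophages, 1 was called higher, against 1.28% of 15277 genes, and 0 lower, against 3.03%. The call was Klra3, at 31 UMIs in beta-elemene and 16 in vehicle (2.02, 1.07 to 3.96). Its level was low, at 0.876 and 0.433 CPM. Malignant cells had Klra3 at 0.127 and 0.0434 CPM, from 10 and 4 UMIs.

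Genes that share the receptors' setting were read from lists. Of 20 other genes of the NK receptor cluster in the files, 11 could be measured in NK cells: 0 were called higher, against 4.98% of all genes, and 2 lower, against 6.31%, with a median log2 ratio of -0.37 beside -0.01 over all genes. Those called were Klri1, an NK lectin-like receptor that pairs with the protein of Klre1, with 63.4 and 130.4 CPM (0.486, 0.282 to 0.850), and the early activation marker Cd69, with 44.7 and 125 CPM (0.358, 0.194 to 0.657). Klri2 and Klrb1f, which had the most UMIs, were at 1.39 (0.886 to 2.25) and 0.715 (0.438 to 1.19). In CD8 T cells 7 were measured and none was called in either direction, against 2.2% of all genes higher and 4.2% lower. Klra5, another Ly49 gene, had 177 CPM in beta-elemene and 126 CPM in vehicle, at 1.41 (1.15 to 1.73).

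Among adaptors and signalling genes, 15 of 18 were measured in NK cells, with 0 called higher (4.98% of all genes) and 2 lower (6.31%). Hcst, the adaptor of NKG2D, had 296 CPM in beta-elemene and 474 CPM in vehicle NK cells (0.625, 0.480 to 0.818), and the kinase gene Fyn had 216 and 328 CPM (0.658, 0.480 to 0.910). Tyrobp, the adaptor of activating Ly49 receptors and of NKG2C, was at 1.19 (1.02 to 1.40), and Fcer1g, the adaptor of NKp46, at 0.922 (0.763 to 1.12). Of these, 17 were measured in CD8 T cells and 0 were called, against 2.2% of all genes higher and 4.2% lower. Hcst there had 660.3 and 721 CPM, at 0.916 (0.834 to 1.00).

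Of 13 other receptors of NK cells, 8 were measured in NK cells and 2 were called lower, against 6.31% of all genes, and 0 higher, against 4.98%. These were the activating receptor Cd226, with 55.9 and 104 CPM (0.536, 0.295 to 0.996), and the costimulatory receptor Cd27, with 69.0 and 130.4 CPM (0.529, 0.310 to 0.917). Lilrb4a and Cd244a, which had the most UMIs, were at 0.924 (0.568 to 1.55) and 0.866 (0.497 to 1.56). All 13 were measured in CD8 T cells and 1 was called higher, against 2.2% of all genes, the checkpoint receptor Havcr2, with 74.2 and 44.1 CPM (1.68, 1.2 to 2.38).

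Of 15 effector genes, 11 were measured in NK cells, with 2 called higher (4.98% of all genes) and 2 lower (6.31%). Gzmc, a granzyme that also leads the NK cluster, had 4976 CPM in beta-elemene and 2023 CPM in vehicle (2.46, 2.21 to 2.74), and perforin, Prf1, had 334 and 151 CPM (2.21, 1.48 to 3.39). The chemokine Ccl5 had 2271 and 5542 CPM (0.410, 0.377 to 0.445), and the death ligand Fasl 129 and 214 CPM (0.602, 0.403 to 0.909). All 15 were measured in CD8 T cells; Ccl4 was called higher (2.2% of all genes), at 2.28 (1.83 to 2.85), and Gzmc lower (4.2%), with 119 and 202 CPM (0.588, 0.480 to 0.718).

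Of 9 ligand genes in the files, 5 could be measured in NK cells, and Raet1d and H60c had 0 UMIs in both NK and CD8 T cells. H2-T23, for Qa-1, had 74.6 CPM (53.3 to 101) in beta-elemene and 93.8 CPM (55.6 to 148) in vehicle NK cells, a ratio of 0.795 (0.445 to 1.47), and 151 and 111 CPM in CD8 T cells, a ratio of 1.37 (1.10 to 1.71). In malignant cells it had 103 CPM in beta-elemene and 59.2 CPM in vehicle, a ratio of 1.73 (1.67 to 1.79), and in macrophages 88.0 and 50.9 CPM, also 1.73 (1.63 to 1.83). Of the 8 ligand genes measured in each of these cell types, H2-T23 was the 1 called higher, and 0 were lower. In macrophages 1.28% of all genes were called higher and 3.03% lower, a share not given for malignant cells. In malignant cells H2-D1, H2-K1 and B2m were at 1.39 (1.38 to 1.40), 1.24 (1.23 to 1.25) and 1.17 (1.16 to 1.18). The NKG2D ligands Raet1e, H60b, Ulbp1 and Raet1d were there at 0.764 (0.699 to 0.836), 0.8025 (0.722 to 0.891), 0.988 (0.935 to 1.04) and 1.17 (0.599 to 2.30). Raet1e was the 1 of the 5 called in NK cells, lower (6.31% of all genes), with 19 UMIs (35.4 CPM) in beta-elemene and 20 UMIs (104 CPM) in vehicle (0.340, 0.171 to 0.670). In NK cells H2-D1 and B2m, which had the most UMIs, were at 0.942 (0.840 to 1.06) and 1.09 (0.960 to 1.24). In CD8 T cells 7 ligand genes were measured and 0 were called, against 2.2% of all genes higher and 4.2% lower.

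The genes whose level was most like that of the receptors were found over 30 points, the cell groups with at least 30 cells in each library, on log2(CPM + 1). The points share libraries and depth, so the correlations describe these cells only. Ccl5, Gzma, Xcl1 and Prf1 were also among the markers that named the NK cells, so their likeness is not independent of the naming. With the 10 genes summed, Pearson's r was 0.947 for Tbx21, the T-bet transcription factor, 0.937 for Ccl5, 0.919 for the interleukin 12 receptor chain Il12rb2, 0.914 for Tmem163 and 0.907 for Sla2. For Klrk1 alone they were Ccl5 (0.919), the receptor Slamf7 (0.917) and Tbx21 (0.909). For Klrc1 they were Gm29243 (0.966), the granzyme gene Gzma (0.9502) and Fasl (0.949). For Ncr1 they were the chemokine Xcl1 (0.940), Samd3 (0.925) and Prf1 (0.922).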

How the data were processed

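The deposited values are counts: unnormalised UMIs per gene and barcode, written by Cell Ranger 7.1.0 per the file headers. Libraries used 3' droplet chemistry per the labels' protocols, and reads were aligned to mm10 with Cell Ranger and STAR per the submitters' processing notes. Counting of intron reads is not given in the sources used here. Barcodes with at least 200 genes and at most 20% mitochondrial UMIs were kept. Scrublet's calls against simulated doublets were removed in each library, 315 (2.9%) in beta-elemene and 338 (3.13%) in vehicle. Both libraries were clustered together with the Leiden method (scanpy 1.11.5, leidenalg 0.10.2, Python 3.11.15) on 2000 variable genes, 30 components and resolution 1.0, and T and NK cells again on 20 components at 0.6, without Klr genes or Ncr1. Names were rebuilt from markers, so they may differ from the study's. UMIs were summed per cell group and library and scaled to CPM; ratios have exact conditional Poisson intervals and shares exact binomial (Clopper-Pearson) ones (scipy 1.17.1). A count of 0 allows up to 3 counts. No p-value was made from cells. All 10 members were named, and from each of 5 lists the 2 most abundant genes and the called ones. For malignant cells every measured ligand gene was named. The interval code was tested on simulated data. Members and lists were chosen with earlier results of these data known.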

Additional observations from a re-analysis of the deposited data

Results flagged for a closer look

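Klrc1 and Klrc2 stood on opposite sides of 1 in the 2 kinds of lymphocyte. The ratio of Klrc1, beta-elemene over vehicle, was 0.533 (0.377 to 0.759) in NK cells, where it was called lower, and 1.23 (1.05 to 1.44) in CD8 T cells, under the 1.5-fold limit of a call. Klrc2 had 0.580 (0.357 to 0.955) in NK cells, also called lower, and 1.28 (1.02 to 1.61) in CD8 T cells, again not called. The difference between the cell types was not tested, since each treatment had 1 library. Without cells holding at least 5 other-class marker UMIs, Klrc1 had 0.798 (0.499 to 1.28) in NK cells and 1.25 (0.995 to 1.57) in CD8 T cells, and Klrc2 0.684 (0.344 to 1.35) and 1.10 (0.822 to 1.48), so all 4 intervals included 1. A mean over cells gave Klrc1 0.685 in NK cells and 1.06 in CD8 T cells, and Klrc2 0.739 and 1.03. The 3' ends of these genes share words with each other, so they are not independent of one another. NK cells had median depths of 6330 UMIs in beta-elemene and 3601.5 UMIs in vehicle, and of 4004.5 and 3533 UMIs without the other-class cells. Among NK cells of 2000 to 10000 UMIs, with medians of 5307 and 3663, the ratios were 0.637 (0.426 to 0.957) for Klrc1 and 0.861 (0.506 to 1.49) for Klrc2. Thinned to 1000 UMIs, Klrc1 was found in 11.6% of beta-elemene and 21.4% of vehicle NK cells, and in 21.4% of beta-elemene and 15.7% of vehicle CD8 T cells, with overlapping intervals in both cell types.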

How the results depend on the processing

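No paired analysis was possible because each group was 1 library, with no replicate numbers and no replicate to leave out. Of 117 alternative values of single members in NK cells 115, and of 109 in CD8 T cells 107, stayed within the counting interval of the value given above. The tally is a weak check, because some alternatives could hardly move a value. Resolutions 0.3 and 1.2 gave the same NK UMIs, and subtracting the malignant level took Klrc1 in NK cells from 0.5332 to 0.5329. No call changed direction. The 2 NK values outside were of called members, Klrc1 without other-class cells (0.798) and Klra3 as a mean over cells (1.00). Some calls were lost at values that stayed within the interval. The ratio of the 10 genes summed in NK cells is not in that tally. It was 1.10 (1952 CPM in beta-elemene and 1782 CPM in vehicle) when cells were gated by marker UMIs, outside its interval of 0.855 to 1.07. Klrc2 was then not called, at 0.7002 (0.381 to 1.32). The count of members called in NK cells, 3, became 0 with a limit of 2-fold, against 3.04% of all genes higher and 3.06% lower. It was also 0 without cells holding other-class markers, a step that took Klrc1 from 85 and 57 UMIs to 39 and 39. The count in CD8 T cells, 2, became 0 at resolutions 0.3 and 1.2, with Klr genes kept in clustering, with called doublets kept, with at least 500 genes and at most 10% mitochondrial UMIs, when gated, with at least 100 UMIs, and without cells holding other-class markers. It became 1 with dividing T cells counted in and 1 among cells of 2000 to 10000 UMIs. A share over all genes is given above only for the main setting, the 100-UMI minimum and the 2-fold limit. The counts at the other settings are therefore not read as a result about the members. The exclusion of cells with other-class markers, the depth window and the counting of dividing cells were chosen after seeing the data. Without other-class cells, Ncr1 in CD8 T cells had 18.9 CPM in beta-elemene and 6.04 CPM in vehicle. Of 40 shares of cells with a UMI, 31 left their interval once cells were thinned to 1000 UMIs, a step that by itself lowers a share. NK depth, 42 vehicle cells and the single library of each group limit every ratio; a member under 20 UMIs has none.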

Other observations

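NK cells were 70 of 641 T and NK cells in beta-elemene (10.9%, 8.61 to 13.6) and 42 of 587 in vehicle (7.16%, 5.21 to 9.55). Gated by marker UMIs instead of clusters, the shares were 9.67% and 8.01%. Gzmc and Ccl5, which lead the NK cluster, themselves differed between the libraries, so the shares describe the cells used and are not read as a change. Conventional CD4 T cells carried some of the receptors, with Klrd1 at 66.2 CPM (47.9 to 89.1) in beta-elemene and 78.5 CPM (56.0 to 107) in vehicle and Klrk1 at 38.5 and 39.2 CPM, and with a UMI of any of the 10 genes in 26.7% and 29.0% of cells. In regulatory T cells the same share was 1.54% and 1.33%, with medians of 2781 and 2988 UMIs. The gamma delta T or innate lymphoid cells, 17 and 18 in number, had 7 UMIs of Klrk1 in beta-elemene and 2 in vehicle and 0 of Klrd1 in both.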
